A study of Mus musculus with 4 samples.

Results

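The myogenic cells of D2-*mdx* and *mdx* muscle were compared gene by gene. They were the barcodes of these libraries with 1000 to 5000 genes, at most 8% of unique molecular identifiers (UMIs) from mitochondrial genes, and at least 2 UMIs summed over *Pax7*, *Myf5*, *Myod1* and *Myog*, the transcription factors of the myogenic lineage. Of 6782 D2-*mdx* barcodes 4403 were kept and of 7173 *mdx* barcodes 5075, which makes 9478 cells out of 27425 barcodes in the series.

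The series holds 4 libraries of 10X Genomics 3′ single-cell RNA sequencing, 1 per strain, each from the pooled hindlimb cells of 2 mice, given as male by the study. Cells were sorted as ITGA7+/VCAM+/Lin-, where Lin- means without CD11b, SCA1, CD45 and CD31. *mdx* is C57BL/10ScSn-Dmdmdx, labelled as 11 weeks old, and D2-*mdx* is D2.B10-Dmdmdx, labelled as 14 weeks old. Both lack full-length dystrophin in every tissue. Their healthy counterparts carry an intact *Dmd* gene: B10 is C57/Bl10ScsSn at 15 weeks and DBA is DBA/2 at 13 weeks. No mouse was treated. With 1 library per strain there was no replicate and no test was possible, so strain, age and library cannot be told apart in any value below, and every interval is a 95% interval of counting error only.

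Satellite cells are the stem cells of skeletal muscle. PAX7 marks them at rest, MYF5 and MYOD1 rise on commitment, and MYOG marks cells that leave the cell cycle to fuse. The *mdx* mutation stops dystrophin, the protein that ties the actin cytoskeleton of a muscle fiber to the matrix, and fibers then break down and are rebuilt. On the DBA/2 background the same mutation is known for less regeneration, more fibrosis and more calcification than on the B10 background.

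Reads were aligned to mm10, the genome of C57BL/6J, which is closer to B10 than to DBA/2. A gene that has a near-identical copy elsewhere can hand its reads to that copy where the strains differ by a few bases, so copies were looked at before any gene was named as a strain difference. The transcript stretches below are shown because the counts of these pairs were divided differently between the libraries. They are from GENCODE M21 on GRCm38, 30 bases each, 5′ to 3′, inside a coding exon of the parent gene, and the capital marks the base at which copy and parent differ in the reference.
Gm10709 (chr9:7752019-7752048, + strand): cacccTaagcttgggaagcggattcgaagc
Rpl29 (chr9:106431261-106431290, + strand, exon 3): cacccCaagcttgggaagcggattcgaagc
Gm10260 (chr13:97760134-97760163, - strand): gggccAaactgtgggtgtatccaagaagaa
Rps18 (chr17:33952047-33952076, - strand, exon 5): gggccGaactgtgggtgtatccaagaagaa
Gm8730 (chr8:102865007-102865036, - strand): actgagtacaccttcccacttGctgaaaag
Rplp0 (chr5:115562537-115562566, + strand, exon 6): actgagtacaccttcccacttActgaaaag
Gm5900 (chr7:104949930-104949959, - strand): gctccAttatttgaagaactgataaaagtt
Lamtor3 (chr3:137927976-137928005, + strand, exon 7): gctccGttatttgaagaactgataaaagtt
Over the aligned part of the copy's last 300 bases, *Gm10709* and *Rpl29* differed at 2 of 242 bases, *Gm10260* and *Rps18* at 4 of 285, and the other pairs shown at 2 of 300 each.

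The cells held 44448258 UMIs in *mdx* and 37944425 in D2-*mdx*, and the median cell had 7279 and 6741 UMIs and 2432 and 2335 genes. Only 4 barcodes occurred in both sets. *Pax7* was at 424 CPM, UMIs scaled to 1e+06 per library, in *mdx* and 427 in D2-*mdx*, *Myf5* at 411 and 320, *Myod1* at 144 and 203, and *Myog* at 300.3 and 246. Since these 4 genes chose the cells, their levels are a description. Markers of some other cell types were more abundant in D2-*mdx*. The 12 white blood cell markers summed to 291 CPM in *mdx* and 872 in D2-*mdx*, the 12 pericyte and smooth muscle markers to 176 and 404. The 10 fibroblast and tenocyte markers summed to 229.7 and 430.1, of which *Dpt*, more frequent in the myogenic cells than in the others, held 205 and 399. The 9 endothelial markers summed to 57.1 and 44.0 CPM and the 12 glial markers to 839 and 744. In B10 and DBA the white blood cell markers summed to 47.8 and 178 CPM. No marker of these lists was at 0 in D2-*mdx*, and 1, *S100a9*, was at 0 in *mdx*. Cells with 5 or more UMIs of white blood cell, endothelial, pericyte or red blood cell genes made up 5.16% of the *mdx* cells and 14.9% of the D2-*mdx* cells.

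A gene was compared when it had at least 10 CPM in *mdx* or D2-*mdx*, and it was counted as higher or lower when the libraries differed by 2-fold or more. Of 8354 genes compared, 175 (2.09%) were higher in D2-*mdx* and 127 (1.52%) were lower. The median log2 ratio of D2-*mdx* over *mdx* was -0.02, and 90% of the genes lay between -0.53 and 0.56. Without the cells that carried UMIs of blood, endothelial or pericyte genes, 131 genes were higher and 121 lower, and 214 of the 302 genes differed in the same direction by 2-fold or more.

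**Figure D1:**
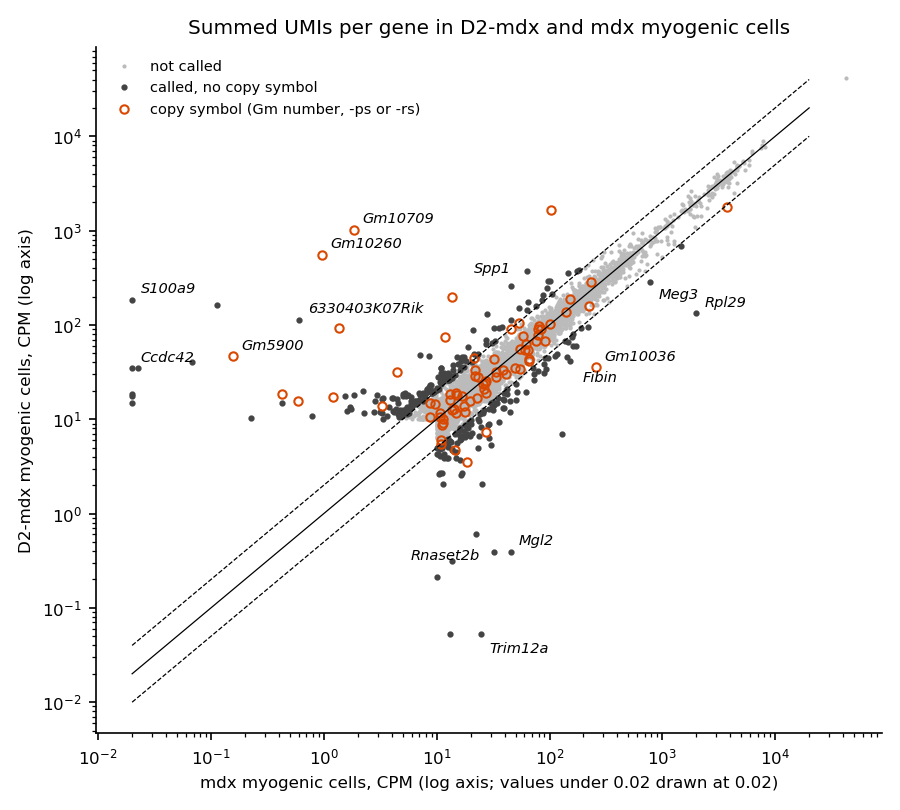
CPM of each compared gene in *mdx* (x axis) and D2-*mdx* (y axis) myogenic cells, both on log axes. Dashed lines mark a 2-fold difference. Grey points lie within it, dark points outside it, and orange open circles are the 75 genes with a copy symbol. *Gm10709* and *Gm10260* sit near 1 CPM in *mdx* and above 500 CPM in D2-*mdx*, and *Trim12a*, *Mgl2* and *Rnaset2b* fall below 1 CPM in D2-*mdx*.

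Copy symbols, which are Gm and a number or end in -ps or -rs, made up more of the differing genes than of all genes. They were 75 of the 8354 genes compared (0.898%) and 18 of the 302 that differed (5.96%). Such a symbol does not by itself show a copy, and 6 of the 18 had no match by sequence. Of these 75 genes 18 (24%) differed, 13 of them higher in D2-*mdx*, against 284 of the 8279 other genes (3.43%). By sequence, 234 compared genes matched another gene in the last 300 bases at 95% identity or more, and 28 of them (11.97%) differed by 2-fold. When the UMIs of each of these 28 genes were added to those of its matches, 20 no longer differed by 2-fold and 8 still did. Where the match is much more abundant, as for *Gm10036* and *Rpl11*, the sum follows the match by arithmetic. Some pairs, such as *Rnaset2a* and *Rnaset2b*, are counted for both members. In 12 of the 28 cases the most abundant match differed by 2-fold in the opposite direction.

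The ribosomal protein gene *Rpl29* and its processed copy *Gm10709* showed this most clearly. *Rpl29* was at 1997 CPM in *mdx*, 133 in D2-*mdx*, 1556 in B10 and 195 in DBA. *Gm10709* was at 1.87, 1022, 3.16 and 1241 CPM in the same order. The libraries of DBA/2 background were low for the parent and high for the copy, whether dystrophic or healthy, and the groups of background did not overlap. Summed with all its matches, *Rpl29* had a log2 ratio of -0.79 (interval -0.80 to -0.77) in place of -3.90.

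For the other pairs the copy was high in both libraries of DBA/2 background, while the parent did not always separate the backgrounds: *Rplp0* was at 3187 CPM in B10 and 3193 in DBA, and *Rps18* at 3075 and 2900. *Gm10260*, a copy of the ribosomal protein gene *Rps18*, went from 0.967 CPM in *mdx* to 556 in D2-*mdx*, while *Rps18* went from 2501 to 1752 and their sum changed by -0.08 on the log2 scale. *Gm8730* went from 104 to 1636 CPM and its parent *Rplp0*, a protein of the ribosomal stalk, from 4289 to 2510.0, with a summed log2 ratio of -0.08. *Gm5900* went from 0.157 to 46.9 CPM and *Lamtor3*, a scaffold protein of the lysosomal Ragulator complex, from 50.2 to 15.9, with a summed log2 ratio of 0.32 (0.23 to 0.40). *Tpm3-rs7* went from 1.35 to 92.9 CPM beside the tropomyosin gene *Tpm3* at 208 and 171 CPM, with a summed log2 ratio of 0.33.

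*Rnaset2b* and *Rnaset2a*, which encode the acid ribonuclease T2, lie on chromosome 17 and were matched to each other over their last 300 bases. *Rnaset2b* was at 32.0 CPM in *mdx* and 0.395 in D2-*mdx*, and *Rnaset2a* at 31.1 and 64.1, and the sum had a log2 ratio of 0.03 (-0.04 to 0.11). *Gm10036*, a copy of *Rpl11*, moved the other way, from 260.5 CPM in *mdx* to 35.6 in D2-*mdx*, with *Rpl11* at 2950 and 3117 CPM. *Gm13212* remained 2-fold or more higher after summing with its match *Gm13157*, at a log2 ratio of 2.35 (2.10 to 2.60). *Gm8730*, *Rplp0*, *Rps18*, *Lamtor3*, *Tpm3*, *Rnaset2a* and *Rpl11* were chosen for the text after their values were seen. From which copy the transcripts came was not tested.

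**Figure D2:**
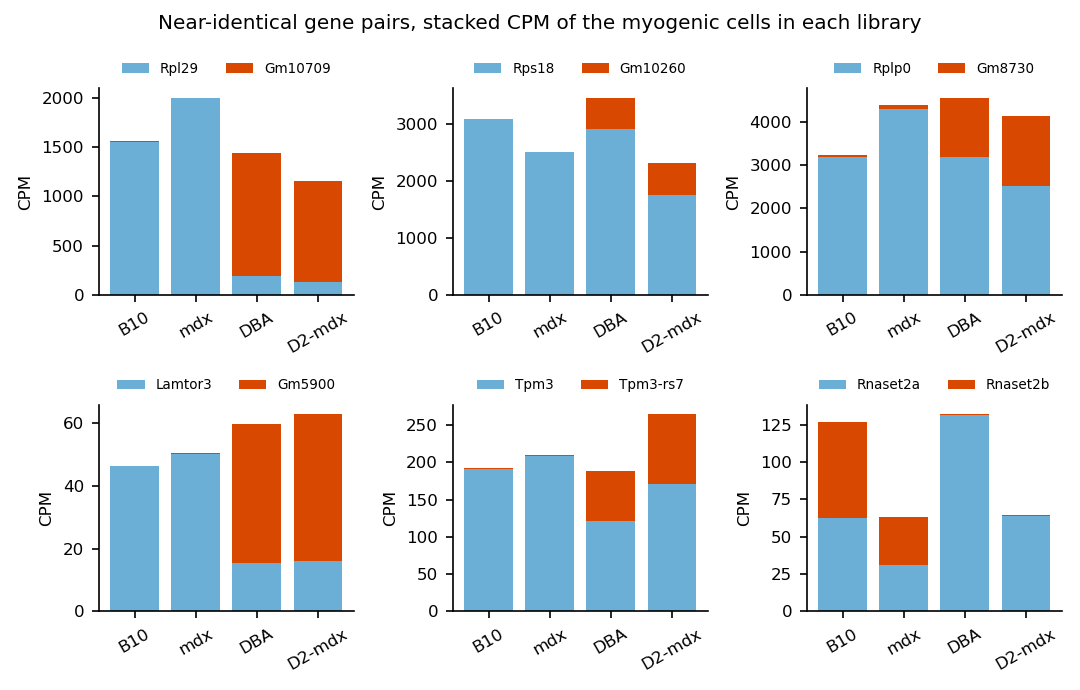
Stacked CPM of 6 near-identical pairs in the myogenic cells of B10, *mdx*, DBA and D2-*mdx*, with the y axis starting at 0 in each panel. The orange share (the copy, or *Rnaset2b*) is at most 104 CPM in B10 and *mdx* and larger in DBA and D2-*mdx* for 5 pairs, and the reverse for *Rnaset2b*, while the height of the stack changes less.

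Of the copy symbols that differed, 6 had no match by sequence. Among them, *Gm26523* was at 14.6 CPM in *mdx* and 4.69 in D2-*mdx*, *Gm28875* at 27.2 and 7.30, and *Gm42418*, which overlaps ribosomal RNA sequence and is a common sink of its reads, at 3761 and 1773. *Gm42418* was higher in the healthy libraries, at 8935 CPM in B10 and 5713 in DBA. *Gm26782*, matched to *Sirt5*, fell from 18.6 to 3.56 CPM, and had a log2 ratio of -0.88 when summed with its match.

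Genes without a copy symbol gave the lowest values of D2-*mdx*. *Trim12a* (chr7:104299894-104315466), of a cluster of TRIM genes linked to antiviral defence, had 1099 UMIs in *mdx* (24.7 CPM) and 2 in D2-*mdx* (0.0527 CPM). It was at 32.8 CPM in B10 and 0.124 in DBA. *Mgl2* (chr11:70130329-70137550), a C-type lectin best known from macrophages, was at 45.1 CPM in *mdx*, 0.395 in D2-*mdx*, 48.2 in B10 and 0 in DBA. It had a UMI in 29.3% of the *mdx* cells, against 3.17% of the *mdx* cells with no myogenic UMI. The median depth was 7279 UMIs in the *mdx* myogenic cells and 6868 in all *mdx* cells with fewer than 2 myogenic UMIs. *Trim12a* had a UMI in 16.9% of the *mdx* myogenic cells and in 27.0% of those without a myogenic UMI.

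Most of the 12 genes lowest in D2-*mdx* were low in DBA as well. *Sbsn*, suprabasin, was at 22.3 CPM in *mdx* and 0.606 in D2-*mdx*, and at 26.3 and 0.278 in B10 and DBA. *Eps8l1*, which acts on actin remodelling, was at 10.1 CPM in *mdx* and 0.211 in D2-*mdx*. *BC026585* was at 13.7 and 0.316 CPM and *4930481A15Rik* at 13.2 and 0.0527. *Rab6b*, a small GTPase of Golgi transport, was at 25.1 and 2.06 CPM, and *Tceanc2* at 16.6 and 2.66. *Mpped2*, a metallophosphoesterase, was the 1 of the 12 with healthy strains within 0.5 on the log2 scale. It was at 16.4 CPM in *mdx* and 2.58 in D2-*mdx*, a log2 ratio of -2.66 (-2.98 to -2.36), but at 11.8 in B10 and 12.2 in DBA.

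Several genes had few or no UMIs in the *mdx* cells. *Ccdc42* (chr11:68587021-68597966), a coiled-coil protein known from sperm, had 1327 UMIs in D2-*mdx* (35.0 CPM), at least 518-fold higher than a floor of 3 UMIs in *mdx*, and was at 19.6 CPM in DBA and 0.143 in B10. It had a UMI in 18.9% of the D2-*mdx* myogenic cells and in 0.558% of those without a myogenic UMI. *6330403K07Rik* (chr11:71031941-71033513) was at 0.607 CPM in *mdx* and 114 in D2-*mdx*, and at 0.262 and 124 in B10 and DBA, with a UMI in 52.1% of the D2-*mdx* cells. Both genes separated the libraries by background, with no overlap.

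The remaining genes of this kind were more frequent in other cells of the sort. *Mrap2*, an accessory protein of melanocortin receptors, had 702 UMIs in D2-*mdx* (18.5 CPM) and none in *mdx*. All D2-*mdx* cells with fewer than 2 myogenic UMIs had a median depth of 6867 UMIs. *Mrap2* UMIs were in 10.7% of the D2-*mdx* myogenic cells and in 36.5% of the D2-*mdx* cells with no myogenic UMI. *Serpina1b*, an alpha-1 antitrypsin gene, was at 17.8 CPM in D2-*mdx* and 0 in *mdx*, in 7.18% of myogenic cells and 45.4% of the others. *Pianp* (15.0 CPM against 0.427 in *mdx*) was in 11.3% and 34.7%, *Tmem45a* (10.8 against 0.787) in 5.75% and 48.6%, and *Ifi202b*, an interferon-inducible DNA sensor, in 6.77% and 26.6%. These shares in the myogenic cells lay below those of the other cells, and expression by the myogenic cells themselves was not tested.

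Neutrophil genes reached the highest ratios through a few barcodes. *S100a9* had 7045 UMIs in D2-*mdx* (186 CPM) and none in *mdx*, and *S100a8*, its partner in the calprotectin complex, had 6161 and 5. The 1% of D2-*mdx* cells with the most UMIs held 97.9% of those of *S100a9* and 97.8% of those of *S100a8*, and 6 and 7 cells had 5 or more. *Camp*, *Ngp* and *Lcn2*, which encode neutrophil granule proteins, had 5 such cells each. *Hba-a2*, an alpha-globin gene, was at 129 CPM in *mdx* and 6.96 in D2-*mdx*, with 4 *mdx* cells at 5 UMIs or more. Its near-identical match *Hba-a1* was at 166 and 188 CPM, and their sum had a log2 ratio of -0.60, short of 2-fold. Without the cells that carried 5 or more UMIs of blood, endothelial or pericyte genes, the log2 ratio of *S100a9* went from 11.43 to 5.94, that of *Lcn2* from 5.53 to 1.48 and that of *Hba-a2* from -4.21 to -1.97. *S100a9* and *Hba-a2* were among the genes by which these cells were removed, so the change in their ratios follows in part from that choice.

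Which of the differences between the dystrophic strains were also seen between healthy strains was read from DBA over B10, a comparison that shares no library with D2-*mdx* over *mdx*. Among the same 8354 genes, DBA was higher than B10 by 2-fold or more in 247 (2.96%) and lower in 134 (1.6%). Of the 175 genes higher in D2-*mdx*, 108 (61.7%) were also higher in DBA, and of the 127 lower ones, 60 (47.2%) were also lower in DBA. These 168 genes are 55.6% of those that differed between the dystrophic strains and 44.1% of the 381 that differed between the healthy ones. The share grew with size: 54 of the 65 genes that differed by 4-fold or more (83.1%), 32 of 34 at 8-fold or more and all 25 at 16-fold or more between D2-*mdx* and *mdx* differed in the same direction in DBA over B10. The 25 included *S100a8*, with 1553 of its 1627 DBA UMIs in 1 cell, and *Camp*, with 335 of 340. They also included genes with near-identical matches, such as *Gm10709* and *Gm10260*. Shares without such genes were not computed. Over all compared genes the log2 ratios had a Pearson's r of 0.66 and a Spearman's rho of 0.42, where genes are not independent.

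**Figure D3:**
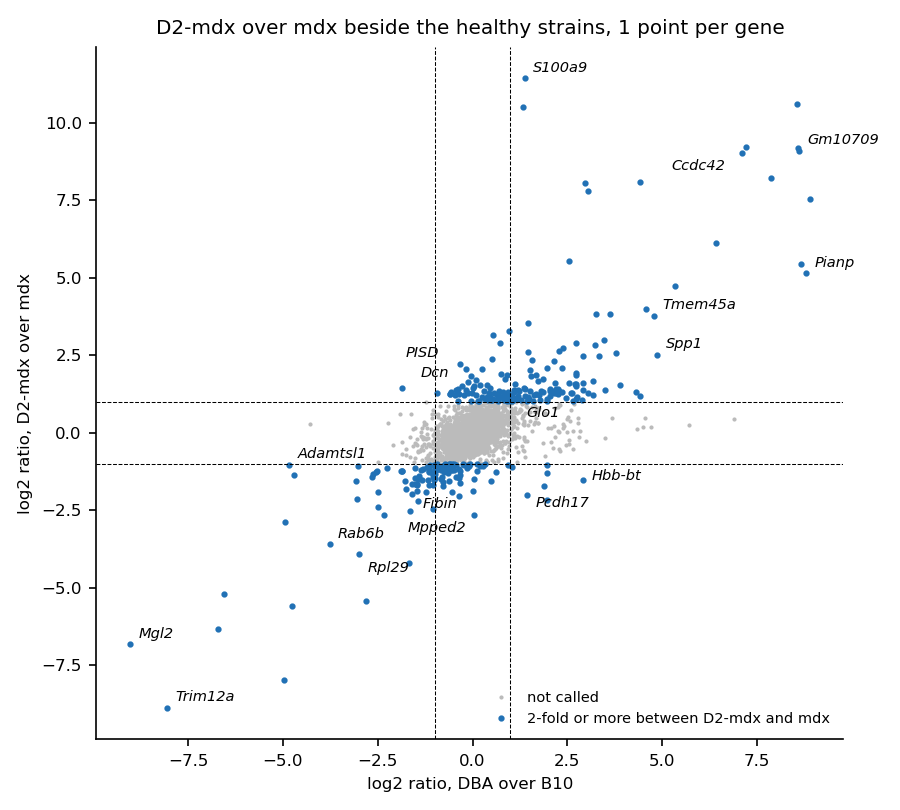
Log2 ratio of each compared gene in D2-*mdx* over *mdx* (y axis) and DBA over B10 (x axis), with dashed lines at 2-fold. Genes 2-fold or more apart between the dystrophic strains are blue. Many of the largest ratios, such as those of *Trim12a*, *Mgl2*, *Ccdc42* and *Gm10709*, lie along the rising diagonal. *S100a9*, with the highest ratio of D2-*mdx* over *mdx* (11.43), lies far above it. *Fibin*, *Mpped2*, *PISD* and *Dcn* lie near 0 on the x axis.

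For 62 of the 302 genes (20.5%), DBA and B10 were within 0.5 of each other on the log2 scale, 36 of those higher and 26 of those lower in D2-*mdx*. *Fibin*, a secreted protein of the developing fin bud and limb, was lowest among them with at least 20 CPM. It was at 153 CPM in *mdx*, 41.1 in D2-*mdx*, 43.7 in B10 and 43.9 in DBA, so *mdx* alone was high, and the log2 ratio of D2-*mdx* over *mdx* was -1.90 (-1.98 to -1.82). *Fibin* had a UMI in 48.1% of the *mdx* cells and 21.9% of the D2-*mdx* cells, above the 21.1% and 12.1% of cells without a myogenic UMI.

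Other genes of this set were high in *mdx* too. *Tsc22d3*, also called GILZ, a glucocorticoid-induced regulator, was at 161 CPM in *mdx* and 59.6 in D2-*mdx*, with 98.3 in B10 and 72.4 in DBA. *Cdc42ep3*, an effector of CDC42, was at 38.3 and 13.1 CPM against 4.47 and 6.28 in the healthy libraries, and had a UMI in 21.7% and 8.45% of the myogenic cells but in 42.8% and 32.2% of the others. *Ptprd*, a receptor tyrosine phosphatase, was at 219 and 95.03 CPM against 139 and 99.9. *Lrrk1*, a kinase, was at 30.9 and 13.2 CPM against 8.82 and 7.05. *Aldh1a1*, a retinaldehyde dehydrogenase, differed from these: it was at 51.1 CPM in *mdx* and 19.6 in D2-*mdx*, and higher in the healthy libraries, at 72.2 and 57.5.

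Among the genes higher in D2-*mdx* with healthy strains within 0.5, *mdx* was the lowest library for *Bmyc*, *Clmn*, *PISD* and *Slc4a3*. *Bmyc*, a MYC-related gene, was at 100.2 CPM in *mdx*, 293 in D2-*mdx*, 255 in B10 and 291 in DBA, so D2-*mdx* was at the level of the healthy libraries. *Clmn*, calmin, was at 64.3 CPM in *mdx* and 176 in D2-*mdx*, both below B10 at 376 and DBA at 515. *PISD*, named for a phosphatidylserine decarboxylase, was at 28.0 and 131 CPM against 90.3 and 72.2. It is not among the 28 differing genes with a match by sequence. That search reached only the 27645 of 27998 genes with a transcript in the annotation used. Whether the reads of *PISD* come from a near-identical copy was not tested. *Slc4a3*, an anion exchanger, was at 11.2 and 30.5 CPM against 21.2 and 21.5. *1500015O10Rik* (*Ecrg4*) was high in D2-*mdx*, at 59.0 CPM against 18.9 in *mdx* and below 2 in the healthy libraries.

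*Lpl*, *Tac4* and *Npy*, named after their values were seen, were also higher in D2-*mdx*, and DBA was above B10 for each, by 2-fold or more for *Lpl* and *Npy*. *Lpl*, lipoprotein lipase, was at 62.7 CPM in *mdx* and 372 in D2-*mdx*, and at 144 in B10 and 1991 in DBA. *Tac4*, a tachykinin, was at 1.87 and 18.1 CPM against 56.5 and 110.2, and *Npy*, neuropeptide Y, at 1.53 and 17.7 against 6.71 and 18.5.

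**Figure D4:**
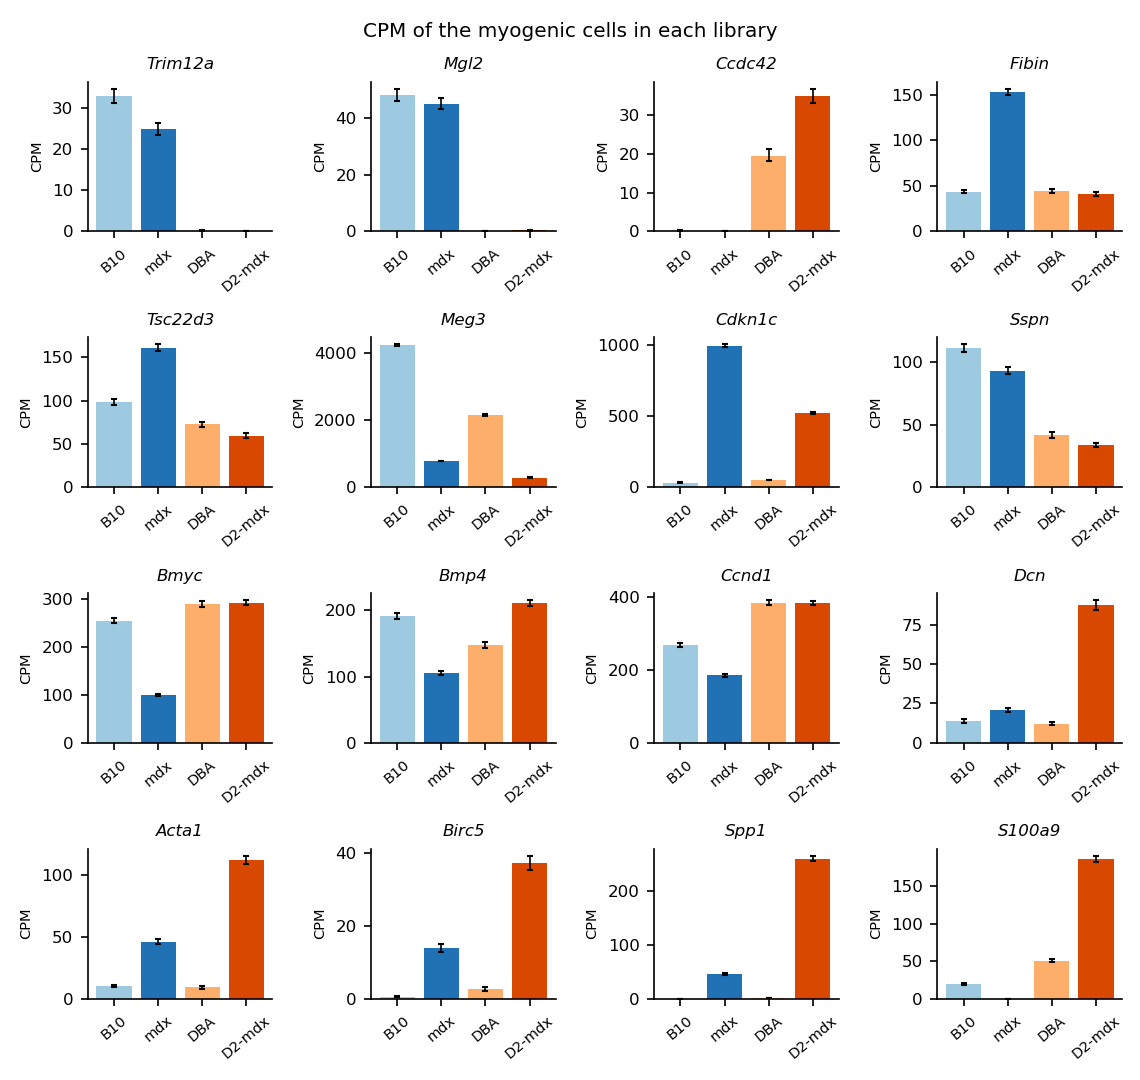
CPM of 16 genes in the myogenic cells of B10, *mdx*, DBA and D2-*mdx*. Bars start at 0 and error bars are 95% Poisson intervals of the counts, which do not hold the spread between mice. *Trim12a* and *Mgl2* separate by background, *Fibin* is high in *mdx* alone, *Bmyc* is low in *mdx* alone, and *Acta1*, *Birc5* and *Spp1* are highest in D2-*mdx*.

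Few regulators of the lineage reached 2-fold, as did few of all genes (302 of 8354, 3.62%). Of the genes compared, 0 of 17 myogenic regulators, 0 of 11 Notch genes and 1 of 27 genes of satellite cell quiescence reached 2-fold in either direction, with median log2 ratios of -0.09, -0.06 and -0.13. *Fam132b* (erythroferrone) was the quiescence gene that did, at 63.4 CPM in *mdx* and 145 in D2-*mdx*. It was higher in the healthy libraries, at 270.5 CPM in B10 and 425 in DBA. *Gas1*, which restrains proliferation, was at 967 and 775 CPM, a log2 ratio of -0.32, and the Notch target *Hes1* at 297 and 182 CPM, a log2 ratio of -0.71. After thinning each cell to 3000 UMIs, *Pax7* was detected in 70.2% of *mdx* and 69.2% of D2-*mdx* cells, *Myf5* in 66.2% and 60.5%, *Myod1* in 20.7% and 24.6% and *Myog* in 6.01% and 7.97%, with no cell left out of either library. All 4 genes also chose these cells.

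Genes of cell division were higher in D2-*mdx*. Of 34 genes of G2 and M phase compared, 16 were 2-fold or more higher, 1 was lower and 31 lay above 0. Of all genes 2.09% were higher and 1.52% lower. The median log2 ratio of the list was 0.92 beside -0.02 over all genes. *Anln*, anillin of the cleavage furrow, was at 4.50 CPM in *mdx* and 14.9 in D2-*mdx*, the cyclin *Ccnb1* at 4.09 and 12.3, *Hmmr*, a spindle protein, at 5.94 and 17.3, and *Birc5*, survivin, at 13.9 and 37.3. In S phase, 2 of 29 genes were higher and 24 lay above 0, with a median of 0.40. *Gmnn*, geminin, was at 6.79 and 15.2 CPM and *Uhrf1*, which maintains DNA methylation, at 5.42 and 11.4. In DBA over B10 the medians of these lists were 0.30 and 0.03.

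Cells with a UMI of a cycling gene were counted as well, from the same cells and UMIs as the sums above. *Mki67*, *Top2a*, *Cdk1* or *Ccnb1* was detected in 5.44% of the *mdx* cells (interval 4.83 to 6.10) and 8.72% of the D2-*mdx* cells (7.90 to 9.59) after thinning, and in 2.12% of B10 and 1.44% of DBA cells. Unthinned, the shares were 11.9% and 17.2% in *mdx* and D2-*mdx*. Without the cells that carried UMIs of blood, endothelial or pericyte genes, 6 of the 34 genes were higher with a median of 0.68, and 0 of the 29 S phase genes were, with a median of 0.20. In the cells with no UMI of *Mki67*, *Top2a*, *Cdk1*, *Ccnb1*, *Myog* or *Tmem8c*, 4 were higher and the median was 0.25. These cells were chosen by the absence of cycling genes, *Ccnb1* of this list included, so the fall follows in part from that choice. *Hjurp*, the chaperone of the centromeric histone, was the 1 gene of the list that was lower, at 61.8 CPM in *mdx* and 19.6 in D2-*mdx*. *Hjurp* was also lower in DBA (21.4) than in B10 (59.4), and had a UMI in 37.2% of *mdx* cells.

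**Figure D5:**
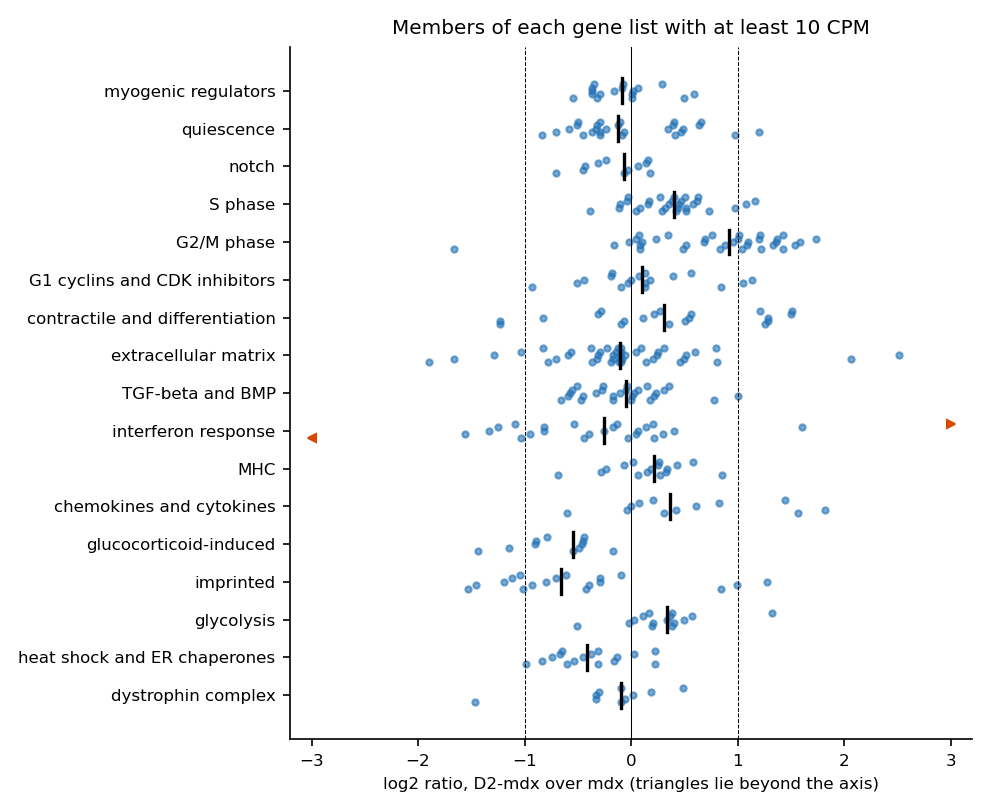
Log2 ratio of D2-*mdx* over *mdx* (x axis) for each compared gene of 17 lists (y axis), 1 point per gene, with bars at list medians, dashed lines at 2-fold and triangles for genes beyond the axis. The G2/M list has its median at 0.92, the imprinted list at -0.66, and the myogenic regulators lie within 2-fold.

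Of 18 G1 cyclins and inhibitors compared, 2 were higher and 0 lower, beside 2.09% and 1.52% of all genes. *Ccnd1*, cyclin D1, was at 184 CPM in *mdx* and 382 in D2-*mdx*, against 267 in B10 and 383 in DBA, and *mdx* was the lowest of the libraries. *Ccne1*, cyclin E1, was at 5.4 and 11.9 CPM. *Cdkn1c*, the imprinted inhibitor p57 that accompanies exit from the cycle, was at 992 CPM in *mdx* and 522 in D2-*mdx*, a log2 ratio of -0.93 (-0.95 to -0.90), against 31.5 in B10 and 49.9 in DBA. *Cdkn1c* had a UMI in 47.0% of the *mdx* and 32.8% of the D2-*mdx* cells, beside 36.7% and 29.1% in cells with no myogenic UMI. The list's median was 0.10. In the cells with no cycling or differentiation UMI 2 genes of the list were higher and 1 was lower, *Cdkn1c*, at a log2 ratio of -1.48.

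Of 20 genes of the contractile apparatus and differentiation compared, 6 were higher and 2 lower in D2-*mdx*, beside 2.09% and 1.52% of all genes. Among the higher ones, which encode proteins of fast or of all mature fibers, *Mylpf* was at 32.5 CPM in *mdx* and 92.7 in D2-*mdx*, *Tnnc2* at 10.8 and 30.7, *Acta1* at 46.0 and 112 and *Tnnt3* at 12.1 and 29.6, and all were at most 10.2 CPM in the healthy libraries. *Eno3*, the muscle enolase of glycolysis, was likewise at 37.8 and 94.5 CPM, with a log2 ratio of 1.32, and 0.94 without the cells that carried UMIs of other types. The lower 2, *Actc1* and *Tnni1*, belong to early differentiation and slow fibers: *Actc1* was at 117 CPM in *mdx* and 49.7 in D2-*mdx*, and *Tnni1* at 13.5 and 5.75. In the cells with no cycling or differentiation UMI neither reached 2-fold, with log2 ratios of -0.19 for *Actc1* and -0.11 for *Tnni1*, while 6 genes of the list were still higher. This set leaves out every cell with a UMI of *Myog* or *Tmem8c*, so the change for *Actc1* and *Tnni1* may follow in part from that choice.

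The UMIs of these genes were unevenly spread over the cells, to differing degrees. The 1% of D2-*mdx* cells with the most UMIs held 92.7% of those of *Actc1*, 59.2% of those of *Mylpf* and 57.5% of those of *Acta1*. For *Tnnt3*, *Tnnc2* and *Eno3* the figures were 48.4%, 46.6% and 36.9%. A UMI of *Acta1* was in 27.4% of the D2-*mdx* and 10.7% of the *mdx* myogenic cells, and in 13.9% and 6.81% of the cells with no myogenic UMI. The same 6 higher genes were also those compared in a list of 9 myofiber genes whose RNA broken fibers can release, which summed to 126 CPM in *mdx* and 322 in D2-*mdx*. The part of released RNA in the difference was not tested.

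Matrix genes as a list were level, with single genes far apart. Of 43 compared, 2 were higher and 4 lower in D2-*mdx*, beside 2.09% and 1.52% of all genes. The median was -0.10 beside 0.29 in DBA over B10. *Sparc* was at 2553 CPM in *mdx* and 2377 in D2-*mdx*, and *Col3a1* at 1036 and 1071. Besides *Fibin*, the lower genes were *Mgp*, the inhibitor of calcification, at 144 and 45.4 CPM, the glypican *Gpc3* at 73.5 and 30.2, and *Adamtsl1* at 34.7 and 16.9. *Adamtsl1* was at 54.4 CPM in B10 and 1.92 in DBA. *Dcn*, the proteoglycan decorin, was at 20.9 CPM in *mdx*, 87.4 in D2-*mdx*, 13.8 in B10 and 12.3 in DBA, a log2 ratio of 2.07 (1.96 to 2.17), and D2-*mdx* alone was high.

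Some of these genes had most of their UMIs in few cells or were more abundant in cells with no myogenic UMI. *Dcn* had a UMI in 13.4% of the D2-*mdx* cells, 58.6% of its UMIs lay in 1% of the cells, and it was at 341 CPM in the D2-*mdx* cells with no myogenic UMI. *Spp1*, osteopontin, a cytokine and matrix protein of macrophages and of injured muscle, was at 45.8 CPM in *mdx* and 261 in D2-*mdx*, against 0.0476 in B10 and 1.39 in DBA. *Spp1* was found in 24.8% of the D2-*mdx* and 6.46% of the *mdx* myogenic cells, below the 28.5% and 9.82% in cells with no myogenic UMI. Whether the myogenic cells themselves expressed *Spp1* was not tested. The log2 ratio of *Spp1* went from 2.51 to 1.12 without the cells that carried UMIs of blood, endothelial or pericyte genes. *Mgp* was at 649 CPM in the D2-*mdx* and 414 in the *mdx* cells with no myogenic UMI. In the myogenic cells, 69.3% of the *Mgp* UMIs of *mdx* and 76.3% of those of D2-*mdx* lay in 1% of the cells. The highest *mdx* cell held 1627 of 6394. The log2 ratio of *Mgp* went from -1.66 to -0.75 in the cells with no cycling or differentiation UMI, short of 2-fold. It was -2.17 without the cells that carried UMIs of blood, endothelial or pericyte genes.

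The calcification list, a small one, differed in a larger part of its genes than the TGF-beta list. Of 7 compared mineralization genes, *Spp1* and *Bmp4* were higher, and *Mgp* was lower, beside 2.09% and 1.52% of all genes. *Bmp4*, a ligand of the BMP pathway, was at 105 CPM in *mdx* and 211 in D2-*mdx*, with 192 in B10 and 148 in DBA, and *mdx* was the lowest. It had a UMI in 45.6% of the *mdx* and 62.1% of the D2-*mdx* cells, and in 9.82% and 11.2% of those with no myogenic UMI. *Bmp4* was the only 1 of 27 TGF-beta and BMP genes compared to reach 2-fold, a share near the 3.62% of all genes. The median of this list was -0.04. The BMP targets *Id1* and *Id3* were at 469 and 2012 CPM in *mdx* and 312 and 1419 in D2-*mdx*, log2 ratios of -0.59 and -0.50.

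Genes that carry known variants between the strains were followed one by one. *Ltbp4* (ENSMUSG00000040488), which binds latent TGF-beta and modifies disease on the DBA/2 background, was at 113 CPM in *mdx* and 128 in D2-*mdx*, a log2 ratio of 0.18, against 305 in B10 and 192 in DBA. *Anxa6*, an annexin of membrane repair, was at 187 and 239 CPM. *Glo1*, glyoxalase, was at 86.3 CPM in *mdx* and 185 in D2-*mdx*, and at 80.8 and 171 in B10 and DBA, so it separated the backgrounds without overlap. *Gpnmb*, a glycoprotein that is truncated in DBA/2J, was at 11.4 and 2.06 CPM, a log2 ratio of -2.47, with a UMI in 5.34% of the *mdx* myogenic cells against 7.73% of the cells without a myogenic UMI. *Ahr* was at 18.1 and 25.2 CPM. *Cdh23* and *Klrd1* stayed below 10 CPM, and *Abcc6*, *Hc* and *Tyrp1* had no UMI in either library, which allows up to 3 UMIs.

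Of 25 interferon genes compared, 6 were lower and 2 higher in D2-*mdx*, beside 1.52% and 2.09% of all genes. Without the cells that carried UMIs of blood, endothelial or pericyte genes, 8 were lower and 2 higher. The median was -0.26 beside -0.73 in DBA over B10. Besides *Trim12a*, *Ifit1* was at 11.5 CPM in *mdx* and 3.93 in D2-*mdx*, *Oasl2* at 16.7 and 6.64, and *Ifit3* at 10.2 and 4.30. The same 3 genes were lower in DBA, at 1.61, 3.71 and 1.79 CPM, than in B10, at 13.5, 22.97 and 10.2. The abundant *Ifitm3* was at 561 and 650 CPM. *Ifitm1* was higher, at 15.1 and 45.8 CPM, but at 452 and 841 CPM in the cells with no myogenic UMI.

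None of 16 genes of the major histocompatibility complex reached 2-fold, beside 3.62% of all genes. Without the cells that carried 5 or more UMIs of blood, endothelial or pericyte genes, 1 was higher. *H2-D1*, a class I heavy chain, was at 284 CPM in *mdx* and 512 in D2-*mdx*, a log2 ratio of 0.85, with a UMI in 76.7% and 89.9% of the cells, below the 93.0% and 96.8% in cells without a myogenic UMI. Of 12 chemokine and cytokine genes, 3 were higher and 0 lower, beside 2.09% and 1.52% of all genes. Of the 3, *Ccl19* (ENSMUSG00000071005) was at 5.04 and 17.8 CPM, *Cxcl14* at 3.37 and 10.0, and *Cxcl2* at 10.2 and 27.8. *Ccl19* was at 77.1 CPM in B10 and 75.1 in DBA, above both dystrophic libraries. It was in 8.45% of D2-*mdx* and 3.74% of *mdx* myogenic cells and in 41.9% and 21.2% of the others, and 88.7% of the *Cxcl2* UMIs of D2-*mdx* lay in 1% of the cells.

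Of 11 genes induced by glucocorticoids, 11 lay below 0, and 2 of them were 2-fold or more lower in D2-*mdx*. Of all genes 1.52% were lower by that much, and their median log2 ratio was -0.02. The median of the list was -0.55 beside -0.68 in DBA over B10. Besides *Tsc22d3*, *Ddit4*, an inhibitor of mTOR signalling, was at 145 CPM in *mdx* and 65.5 in D2-*mdx*, and at 126 and 57.1 in B10 and DBA. The metallothionein *Mt1* was at 1898 and 1384 CPM, a log2 ratio of -0.46. Of 11 circadian genes, *Dbp* was lower, at 31.7 and 14.2 CPM, and the list's median was -0.39. Time of day at collection is not given in the labels.

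Of 16 genes in a list of heat shock and endoplasmic reticulum chaperones 13 lay below 0, with a median of -0.42. None of them reached 2-fold, and 1 was lower without the cells that carried UMIs of blood, endothelial or pericyte genes. *Hspa5* (BiP) was at 1280 CPM in *mdx* and 714 in D2-*mdx*. *Hspb1*, the small heat shock chaperone HSP27, which stands in another list, was the only 1 of 26 immediate-early and stress genes to reach 2-fold, at 1456 and 695 CPM, a log2 ratio of -1.07, and -0.98 without the cells that carried UMIs of blood, endothelial or pericyte genes. *Fos* and *Jun*, which dissociation induces, were at 7838 and 6197 CPM in *mdx* and 8860 and 6652 in D2-*mdx*.

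Imprinted genes were lower in D2-*mdx* more often than higher. Of 18 compared, 15 lay below 0, 6 were 2-fold or more lower and 1 was higher, beside 1.52% and 2.09% of all genes. The median was -0.66 beside -0.02 over all genes and -0.09 in DBA over B10. *Plagl1* (Zac1), a zinc finger factor of the imprinted network, was at 172 CPM in *mdx*, 59.5 in D2-*mdx*, 38.6 in B10 and 17.3 in DBA. *Meg3*, a long noncoding RNA, was at 784 and 285 CPM against 4229 and 2148, so both dystrophic libraries were low. *H19* was at 96.9 and 44.7 CPM, *Peg10* at 17.4 and 7.59, and *Igf2*, the fetal growth factor, at 189 and 93.2. *Igf2* was at 51.5 and 49.3 CPM in B10 and DBA, and *Igf2* was the 1 of 11 genes of IGF signalling past 2-fold, and 0 were without the cells that carried UMIs of blood, endothelial or pericyte genes.

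The imprinted genes differed in how they stood outside the myogenic cells. *Plagl1* had a UMI in 50.6% of the *mdx* and 24.7% of the D2-*mdx* cells, against 3.79% and 3.03% of cells with no myogenic UMI. *Meg3* was in 48.8% and 32.1% of the myogenic cells and in 49.3% and 62.4% of the others. *Peg3* was at 1265 and 774 CPM, a log2 ratio of -0.71. The higher gene, *Snrpn*, was at 5.35 and 12.9 CPM, and at 2.81 and 13.0 in B10 and DBA. Without the cells that carried UMIs of blood, endothelial or pericyte genes, 4 imprinted genes were lower and 2 higher, and the median was -0.61.

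*Dmd* itself was at 127 CPM in *mdx* (5633 UMIs) and 101 in D2-*mdx* (3838 UMIs), a log2 ratio of -0.33 (-0.38 to -0.27), against 325 in B10 and 291 in DBA. Both dystrophic libraries were thus below both healthy ones. Of 10 compared genes of the dystrophin complex 1 was lower in D2-*mdx* and none was higher, beside 1.52% and 2.09% of all genes. *Sspn*, sarcospan, was at 93.4 CPM in *mdx*, 33.8 in D2-*mdx*, 111 in B10 and 41.8 in DBA, so it followed the background. It had a UMI in 49.2% of *mdx* and 23.4% of D2-*mdx* cells. The dystroglycan gene *Dag1* was at 1365 and 1382 CPM, utrophin (*Utrn*) at 133 and 108 and the sarcoglycan *Sgcb* at 54.1 and 75.7. *Sgcd*, *Sntb1*, *Dtna* and *Nos1* stayed below 10 CPM in both libraries.

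The D2-*mdx* strain was made by crossing the *Dmd* mutation from B10-type mice onto DBA/2, so the chromosome around *Dmd* (chrX:82948870-85206141) can derive from B10. Within 10 Mb of *Dmd*, 39 genes were compared, *Dmd* included, and none differed by 2-fold between D2-*mdx* and *mdx*, with log2 ratios from -0.41 to 0.53. On the rest of chromosome X, 7 of 218 did, from -1.90 to 1.30. Over all genes 302 of 8354 (3.62%) differed, and none of 39 lies near that share. The strain origin of the chromosome around *Dmd* was not tested. In DBA over B10, *Nsdhl*, a sterol enzyme at the edge of this window, was the 1 gene of the 39 past 2-fold, at 9.63 CPM in B10 and 20.5 in DBA. It was at 8.98 CPM in *mdx* and 11.8 in D2-*mdx*.

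Few genes of the housekeeping groups reached 2-fold, as few of all genes did (302 of 8354, 3.62%). Of 84 ribosomal protein genes only *Rpl29* reached 2-fold, and the median was 0.01. Of 77 nuclear genes of oxidative phosphorylation 69 lay above 0, none past 2-fold, with a median of 0.17, and *Cox4i1* was at 1110 and 1269 CPM. The 13 mitochondrial genes had a median of 0.03. Of 15 glycolysis genes 13 lay above 0, with a median of 0.34 beside 0.08 in DBA over B10. *Eno3* was the 1 of them that reached 2-fold, and *Gapdh* was at 1933 and 1974 CPM. Of 13 annexin and membrane repair genes none reached 2-fold, and *S100a6* was at 1533 CPM in *mdx* and 1875 in D2-*mdx*, above 370 in B10 and 226 in DBA. Of 13 histone genes *H2afj* was higher, at 87.1 and 209 CPM, and at 49.5 and 237 in B10 and DBA.

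Markers of other cell types followed the sums given above. Of 7 pericyte and smooth muscle genes compared, 4 were 2-fold or more higher in D2-*mdx*, beside 2.09% of all genes. Of the 7, 0 were higher without the cells that carried UMIs of blood, endothelial or pericyte genes, a set chosen on some of the same genes. *Rgs5*, a pericyte gene, was at 95.8 CPM in *mdx* and 245 in D2-*mdx*, and at 3408 and 5084 in the cells with no myogenic UMI. Of 10 white blood cell genes compared 4 were higher, beside the same 2.09% of all genes. The 4 included *Lyz2*, lysozyme, at 97.5 and 289 CPM. A UMI of *Lyz2* was in 9.32% and 28.7% of the myogenic cells, below 18.6% and 35.9% of the others. The endothelial genes *Gpihbp1* and *Flt1* were at 11.2 and 10.8 CPM in *mdx* and 7.30 and 7.46 in D2-*mdx*. Of 2 fibroblast and tenocyte genes compared, *Thbs4*, a thrombospondin of tendon, was at 12.5 and 7.04 CPM, a log2 ratio of -0.83. The other, *Dpt*, dermatopontin, was at 205 and 399 CPM, a log2 ratio of 0.96, and was in 67.9% and 82.7% of the myogenic cells, more than the 11.5% and 49.6% of the cells with no myogenic UMI. As a check of the labels, the Y-linked *Ddx3y* was at 90.2 CPM in *mdx* and 96.7 in D2-*mdx*, and *Xist*, of the inactive X, had 9 and 3 UMIs.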

How the data were processed

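The authors sorted the cells, sequenced 10X Genomics 3′ libraries, used Cell Ranger 3.0.1 and the mm10 build (per the labels) and deposited raw UMI counts per gene and barcode for each library, without normalization. Which deposited barcodes were filtered before is not given in the sources used here. Intronic or antisense counting is not given either.

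Cells passed 1000 to 5000 genes, at most 8% mitochondrial UMIs and at least 2 UMIs of *Pax7*, *Myf5*, *Myod1* and *Myog*, and predicted doublets were kept in the main comparison. In these cells the barcodes with the highest Scrublet scores (scanpy 1.11.5), up to an expected share of 0.008 per 1000 barcodes, numbered 304 in *mdx* and 235 in D2-*mdx*. UMIs were summed per gene over 27998 genes and scaled to CPM. The log2 ratio had a 95% interval from the exact binomial share of both counts, CPM had an exact Poisson interval and shares of cells a Clopper-Pearson interval. PCR duplicates are collapsed by UMI, and the intervals cover counting error only. A library at 0 was set to a floor of 3 counts. Genes with at least 10 CPM in *mdx* or D2-*mdx* were compared at 2-fold. With 1 library per strain no p-value was computed. The ratios and intervals were tested on simulated data. Copies were found with blastn 2.17.0 on GENCODE M21 transcripts (last 300 bases, 95% identity, in genes that do not overlap). Of the 27998 genes, 27645 had such a transcript, and the others could not be searched.

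Named genes were *Dmd*, the 4 myogenic genes, the 12 highest and lowest ratios without a copy symbol, 5 each with one, 8 each with healthy strains within 0.5 and at least 20 CPM, up to 4 per direction and the 2 most abundant of each list, both small lists in full, genes near *Dmd* and sex-linked genes. Those named outside this rule are said to be. The cells, lists and rules were chosen with earlier results of these data known. Alternatives were cell filters, doublets removed, cells with other markers removed, library sizes of edgeR 4.0.16 (TMM) and DESeq2 1.42.0, totals without mitochondrial, ribosomal and copy genes, per-cell means, 50 or no minimum CPM, 4-fold, and thinning. Removing cells with 5 or more UMIs of blood, endothelial or pericyte genes and summing copies were added after seeing the data. Computations used Python 3.11.15, numpy 2.4.6, scipy 1.17.1, pandas 2.3.3, R 4.3.3 and matplotlib 3.10.9.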

Additional observations from a re-analysis of the deposited data

Results flagged for a closer look

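A 2-fold difference between the dystrophic strains and an opposite one between the healthy strains was looked for in genes with 10 CPM or more in a library of each pair. There were 3 such genes, chosen by these values, each with 1 library per strain, and the difference between the comparisons was not tested. *Pcdh17*, a protocadherin, had a log2 ratio of -2.01 between D2-*mdx* and *mdx* and 1.44 from B10 to DBA, at 10.8, 2.69, 21.9 and 59.2 CPM in *mdx*, D2-*mdx*, B10 and DBA. *Kif21a*, a kinesin, had -1.10 and 1.04, at 26.5, 12.4, 14.4 and 29.5 CPM. *Hbb-bt*, a beta-globin gene, had -1.54 and 2.91, and 99.1% of its *mdx* UMIs lay in 1% of the cells, with 4 cells at 5 UMIs or more. In DBA, 1 cell held 439 of its 475 UMIs.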

How the results depend on the processing

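The removal of cells with 5 or more UMIs of blood, endothelial or pericyte genes was chosen after seeing the data. No paired analysis was possible because each strain is 1 library. The 175 higher and 127 lower genes became 35 and 31 at 50 CPM, 1505 and 1147 with no minimum CPM, and 44 and 21 at 4-fold. Leaving out cells with 3 or more UMIs of other cell types removed 87.5% of the *mdx* and 95.6% of the D2-*mdx* cells and gave 396 lower genes. In the healthy libraries it removed 94.3% of the B10 and 99.1% of the DBA cells and left 263 and 26. The share of copy symbols among differing genes (5.96%) became 12.1% at 50 CPM, 18.0% with no minimum and 3.55% without those cells. The share that also differed between DBA and B10 (55.6%) became 66.2% where 4-fold was required of both, 40.5% with no minimum and 35.7% without those cells. Of the 302 genes, 299 and 296 also differed with TMM and DESeq2 library sizes, 247 with at least 500 genes and no upper limit, 243 with means of per-cell counts, 223 in cells without cycling or differentiation UMIs, and 196 to 302 under the other cell filters and scalings. List counts moved in both directions without cells with 5 or more UMIs of blood, endothelial or pericyte genes: quiescence went from 1 to 2 higher, matrix from 2 higher and 4 lower to 3 and 5, white blood from 4 higher to 5 with 1 lower, and copy symbols from 13 to 15 higher. Detection of *Mki67*, *Top2a*, *Cdk1* or *Ccnb1* in *mdx* (5.44%) and D2-*mdx* (8.72%) became 6.77% and 13.4% with at least 500 genes and no upper limit, 3.78% and 10.4% without cells with 3 or more UMIs of other types, 3.98% and 6.79% thinned to 2000 UMIs, and 11.9% and 17.2% unthinned, and 7.69% in D2-*mdx* without cells with 5 or more UMIs of blood, endothelial or pericyte genes. Among named genes that differed by 2-fold, 9 values changed sign. Without cells with 3 or more UMIs of other types, where few cells were left, *Fam132b* became -0.022, *S100a9* -0.048, *Ccl19* -0.048, *Peg10* 0.052, *Hbb-bt* 0.22, *Cxcl14* -0.78 and *Myh11* -0.78. *S100a9* and *Myh11* were among the markers by which these cells were removed, so their change follows in part from that choice. *Hbb-bt* became 0.75 without cells with 5 or more UMIs of blood, endothelial or pericyte genes, and *Uhrf1* -0.25 in cells without cycling or differentiation UMIs. Of 2574 values of named genes under alternatives 1823 stayed within the counting interval. Of 430 list medians 406 stayed within a range taken from the ranks of the list's own members, which is not counting error. A gene at 10 CPM had too few UMIs for a small ratio to be resolved, and no value carries the spread between mice. The causes of these changes were not tested.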
